A study of Mus musculus with 16 samples.

Results

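The p53 and Rb pathway genes described here are 8 genes read by 19 probe sets, out of 18193 genes and 45101 probe sets on the arrays. They were chosen by name as proteins bound by the SV40 large T antigen, inhibitors of the pathway and targets of p53. Of 10 genes so listed, Rb1, Rbl1, Rbl2, Cdkn2a, Mdm2, Cdkn1a, Ccng1 and Sesn2 were measured, while Trp53 and Bax were not analysed here. A probe set is a group of short oligonucleotides that reads 1 or more transcripts, and where a gene had several probe sets the brightest over all arrays was tested.

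The RNA came from thoracic mammary glands of FVB/N females, all homozygous for an SV40 large T antigen transgene driven by the C3(1) fragment of the rat prostatic steroid binding protein promoter. There were 4 groups of 4 arrays each: isolated mice at 20 weeks, grouped mice at 20 weeks, isolated mice at 15 weeks and grouped mice at 15 weeks. Isolated mice lived alone after weaning at 21 days and grouped mice lived with other females, and all were killed in estrus at the same hour of the dark phase. Every group carried the transgene, so its own effect was not compared, and the level of large T itself was not analysed here. Arrays of a group are numbered, but separate mice are not stated, and p-values then refer to the spread between samples only. In RNA of a whole gland, fewer cells of a type and less RNA per cell cannot be told apart.

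Large T antigen binds p53, the transcription factor that halts damaged cells, and the retinoblastoma family, which holds E2F transcription factors in check. Binding blocks both, so cells that make large T can enter the cell cycle while the usual brakes are present. Mdm2 is the ubiquitin ligase that removes p53 and is itself a p53 target, Cdkn2a encodes an inhibitor of the Rb kinases and, from another reading frame, ARF, which restrains Mdm2. Rbl1 and the ARF start of Cdkn2a are known E2F targets, and Cdkn1a, Ccng1 and Sesn2 are known p53 targets.

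The promoter windows of the genes that moved most with age are shown first, since E2F and p53 act at such sites. They are RefSeq windows of GRCm38.p6, from 250 bases before to 50 bases after a start, in the direction of the gene. RefSeq windows were matched for 7 of the 8 genes, and Rb1 was not matched. Capitals mark the E2F motif, searched on both strands as TTCCCGC, then as TTCGCGC, then as TTGCCGC and then as TTGGCGC, or a p53 half-site, which is palindromic in its consensus. Cdkn2a, at chr4:89294570-89294869 on the minus strand, had the E2F motif 98 bases before its upstream start. Rbl1, at chr2:157204485-157204784 on the minus strand, had it 17 bases before the start. Mdm2, at chr10:117710709-117711008 on the minus strand, had a p53 half-site 186 bases before the start. Cdkn1a, at chr17:29090729-29091028 on the plus strand, had half-sites 73 and 51 bases before its upstream start.
Cdkn2a: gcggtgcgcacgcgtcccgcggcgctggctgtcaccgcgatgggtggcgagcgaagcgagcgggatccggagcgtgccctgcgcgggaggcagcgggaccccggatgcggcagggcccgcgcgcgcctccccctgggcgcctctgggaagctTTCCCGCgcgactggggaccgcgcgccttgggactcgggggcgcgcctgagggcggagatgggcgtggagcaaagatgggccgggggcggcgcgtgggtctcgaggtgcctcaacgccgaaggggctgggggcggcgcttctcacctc
Rbl1: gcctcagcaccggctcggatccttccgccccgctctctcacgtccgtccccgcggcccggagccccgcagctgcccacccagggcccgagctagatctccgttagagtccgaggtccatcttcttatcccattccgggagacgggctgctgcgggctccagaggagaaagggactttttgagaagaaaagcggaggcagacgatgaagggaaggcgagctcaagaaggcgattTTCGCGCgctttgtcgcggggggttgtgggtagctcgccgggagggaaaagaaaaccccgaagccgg
Mdm2: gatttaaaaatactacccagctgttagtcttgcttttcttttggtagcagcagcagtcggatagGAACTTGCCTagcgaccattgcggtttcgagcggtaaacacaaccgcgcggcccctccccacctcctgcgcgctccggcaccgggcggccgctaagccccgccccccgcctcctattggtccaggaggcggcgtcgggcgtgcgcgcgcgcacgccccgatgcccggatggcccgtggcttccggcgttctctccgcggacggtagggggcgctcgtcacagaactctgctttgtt
Cdkn1a: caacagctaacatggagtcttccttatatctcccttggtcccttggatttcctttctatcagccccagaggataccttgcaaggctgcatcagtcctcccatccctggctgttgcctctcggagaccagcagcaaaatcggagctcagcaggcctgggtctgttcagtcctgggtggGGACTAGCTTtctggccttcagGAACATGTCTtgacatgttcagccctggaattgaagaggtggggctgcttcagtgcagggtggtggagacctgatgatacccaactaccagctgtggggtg
Of the windows of all genes tested, 13.6% held the E2F motif and 7.22% a p53 half-site. The second windows of Cdkn2a and Cdkn1a and those of Rbl2 and Sesn2 held neither, and that of Ccng1 held a half-site 185 bases before the start. A motif in a window is a description of its letters and not evidence of binding.

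Array medians lay between 8.31 and 8.34 at 20 weeks and between 8.09 and 8.11 at 15 weeks (log2). Over all genes the median difference between 20 and 15 weeks was 0.24 in isolated and 0.23 in grouped mice on the log2 scale. Each age had a distribution of its own, and no label records a run, so age and array run cannot be told apart. Age differences are therefore given as deposited, then relative to that median, and after scaling the arrays alike by quantile normalization, cyclic loess or median centring. Epithelial keratins were high: Krt8 averaged 12.18 and Krt18 12.01 over the 16 arrays, far above the arrays' lower quartiles of 6.76 to 7.04. These levels show epithelial RNA but cannot tell mammary gland from other epithelial tissue. The glands also held skeletal muscle RNA, with list means from 12.32 to 13.83 on single arrays.

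**Figure D1:**
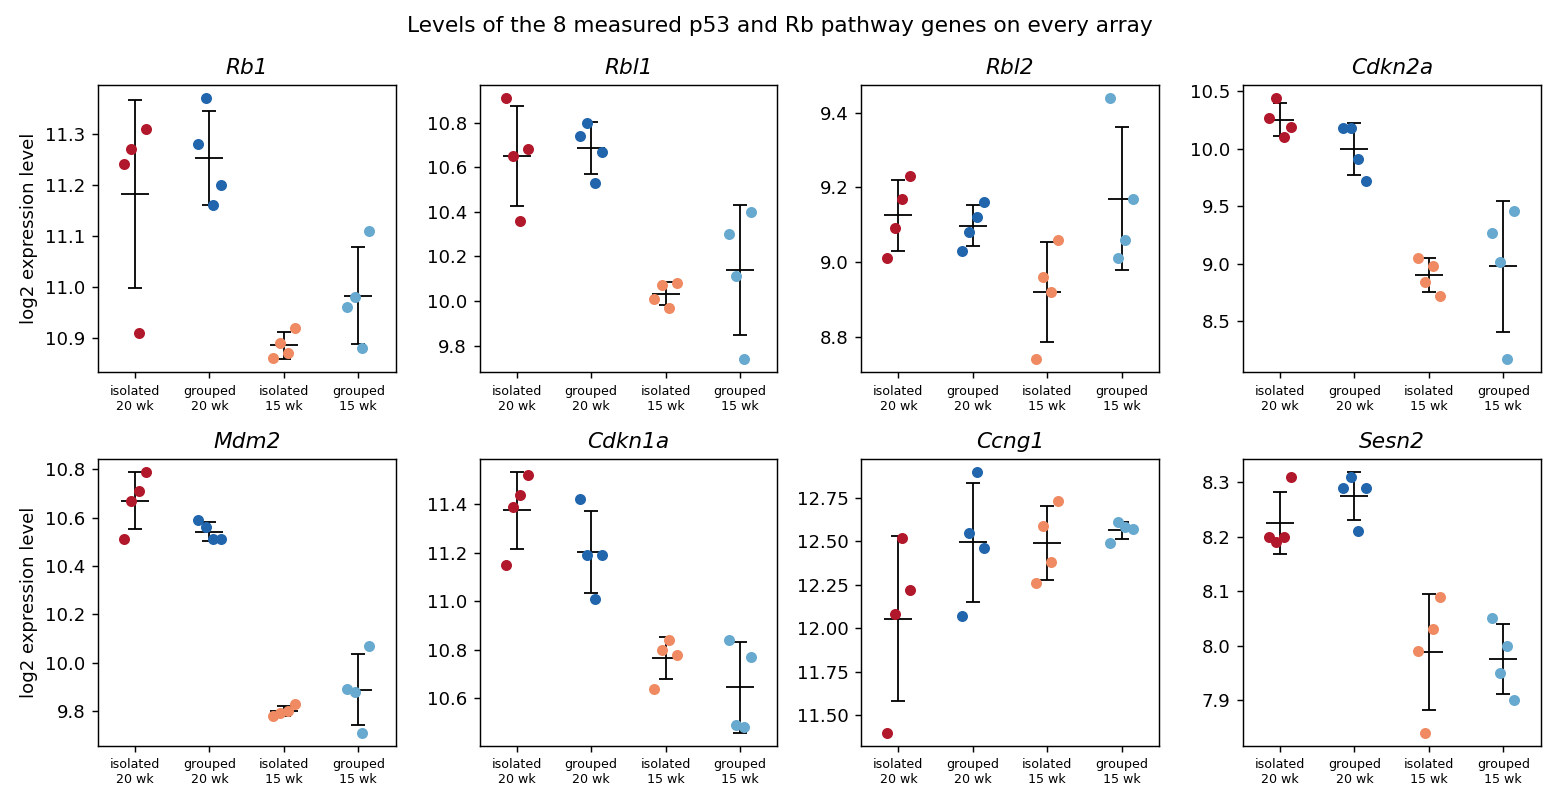
Log2 expression level of each measured gene on every array, with 4 points per group and black bars for the group mean and SD. Cdkn2a, Mdm2, Cdkn1a, Rbl1 and Sesn2 were higher on every array of 20 weeks than on any of 15 weeks in the same housing. Rb1 was so in grouped mice only, and Ccng1 and Rbl2 overlapped. The share of all genes without overlap between the ages was not counted.

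Cdkn2a had the largest age difference of the 8 genes in both housings. Its level was 10.27, 10.44, 10.10 and 10.19 in isolated mice at 20 weeks, against 9.05, 8.84, 8.98 and 8.72 in isolated mice at 15 weeks (log2). Every array of 20 weeks lay above every array of 15 weeks, and how many of all genes did so was not counted. The gene was 2.55-fold higher at 20 weeks (log2 difference 1.35, SE 0.09, limma adjusted p = 9.44e-06). Grouped mice had 10.18, 10.18, 9.91 and 9.72 at 20 weeks, against 9.27, 9.01, 8.17 and 9.46 at 15 weeks. The ages did not overlap here either, but replicate 3 at 15 weeks was far below the rest of its group. The difference was 2.03-fold (log2 1.02, SE 0.25, limma adjusted p = 0.00545). Leaving out each array gave log2 differences from 0.75, without that replicate 3, to 1.18, each with a limma adjusted p of at most 0.0179. Only 0.423% of all genes had a larger difference in isolated mice and 0.929% in grouped mice. Relative to the median of all genes the differences were 1.12 in isolated and 0.79 in grouped mice, and under the 3 scalings they stayed past the threshold at 1.05 to 1.13 and 0.76 to 0.79. The transcript that the only Cdkn2a probe set reads is not named in the sources used here.

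Among the tested probe sets Mdm2 had the next largest age difference. It read 10.51, 10.67, 10.71 and 10.79 in isolated mice at 20 weeks, against 9.78, 9.79, 9.80 and 9.83 in isolated mice at 15 weeks. The arrays of 15 weeks lay within 0.05 of each other, and none reached an array of 20 weeks. Mdm2 was 1.83-fold higher at 20 weeks (log2 0.87, SE 0.07, limma adjusted p = 1.13e-05). Grouped mice had 10.59, 10.56, 10.51 and 10.51 at 20 weeks, against 9.89, 9.88, 9.71 and 10.07 at 15 weeks. Again no array of 15 weeks reached those of 20 weeks, and the difference was 1.57-fold (log2 0.65, SE 0.08, limma adjusted p = 0.000185). The share of all genes separated in this way was not counted. Net of the median of all genes the differences of this probe set were 0.63 in isolated and 0.42 in grouped mice. All 3 scalings kept them past the threshold. The other Mdm2 probe sets, described further on, differed by less.

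Cdkn1a encodes the cyclin-dependent kinase inhibitor through which p53 stops the cycle. Its level was 11.15, 11.39, 11.44 and 11.52 in isolated mice at 20 weeks, against 10.64, 10.80, 10.84 and 10.78 in isolated mice at 15 weeks. Grouped mice had 11.42, 11.19, 11.01 and 11.19 at 20 weeks, against 10.84, 10.49, 10.48 and 10.77 at 15 weeks. The ages did not overlap in either housing, and how common this was among all genes was not counted. Cdkn1a was 1.53-fold higher at 20 weeks in isolated mice (log2 0.61, SE 0.09, limma adjusted p = 0.000216) and 1.47-fold higher in grouped mice (0.56, SE 0.11, adjusted p = 0.0022). The scalings reduced the differences to 0.27 to 0.39 in isolated and 0.32 to 0.34 in grouped mice, still past the threshold. With RNA integrity in the model, taken as the gap between 3′ and 5′ Gapdh control signal, Cdkn1a missed it in grouped mice (0.39, adjusted p = 0.0697). That gap averaged -0.01 in grouped mice at 20 weeks and -0.06 in grouped mice at 15 weeks.

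Ccng1, cyclin G1, which recruits a phosphatase to Mdm2, did not pass as higher in either housing. Its level was 11.40, 12.08, 12.52 and 12.22 in isolated mice at 20 weeks, against 12.26, 12.59, 12.38 and 12.73 in isolated mice at 15 weeks. Replicate 1 at 20 weeks was the lowest of all 16 arrays, replicates 2 and 4 also lay below every array of 15 weeks, and replicate 3 overlapped them. The difference of -0.44 (SE 0.21) did not pass (limma adjusted p = 0.0924). It passed after each of the 3 scalings, at -0.63 to -0.75 (adjusted p = 0.013 to 0.0263), and with the Gapdh term (-0.52, adjusted p = 0.0161), the actin term (-0.64, adjusted p = 0.00181) or without replicate 3 at 20 weeks (-0.59, adjusted p = 0.0274). Without replicate 1 at 20 weeks the difference as deposited was -0.22 (adjusted p = 0.17). Grouped mice had 12.07, 12.55, 12.90 and 12.46 at 20 weeks, against 12.49, 12.61, 12.58 and 12.57 at 15 weeks. These groups overlapped too (-0.07, SE 0.15, adjusted p = 0.697). The mean of the 8 skeletal muscle markers was 12.32 in that same replicate 1, its lowest on any array. Adipocyte (10.39) and endothelial (8.72) marker means were also the lowest of all 16 arrays there. Fibroblast (11.77), macrophage (11.05) and basal epithelial (9.81) means were the lowest of that group, while luminal, T cell and B cell means were not. As deposited 6 of the 8 muscle markers were lower at 20 weeks in isolated mice, where 9.33% of all genes were. The part of muscle or of other cells in the Ccng1 difference was not tested.

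Sesn2 encodes a stress-induced inhibitor of mTOR signalling, and its tested probe set differed little beyond the shift of all genes, while its other probe set, described further on, differed by more. The tested one read 8.20, 8.19, 8.20 and 8.31 in isolated mice at 20 weeks, against 7.99, 7.84, 8.03 and 8.09 in isolated mice at 15 weeks. In grouped mice it read 8.29, 8.31, 8.21 and 8.29 at 20 weeks, against 8.05, 7.95, 8.0 and 7.90 at 15 weeks. The ages did not overlap in either housing, a separation that was not counted over all genes. The differences passed as deposited: 0.24 (SE 0.06, limma adjusted p = 0.00878) in isolated and 0.30 (SE 0.05, adjusted p = 0.00135) in grouped mice. Net of the median of all genes they were 0.00 and 0.07, and under the 3 scalings they were 0.01 to 0.02 and 0.06 to 0.07 and did not pass.

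Among the retinoblastoma family, Rbl1, the member that binds mostly the repressor E2Fs in cycling cells, had the largest age difference. It read 10.91, 10.65, 10.36 and 10.68 in isolated mice at 20 weeks, against 10.01, 10.07, 9.97 and 10.08 in isolated mice at 15 weeks. In grouped mice it read 10.74, 10.80, 10.53 and 10.67 at 20 weeks, against 10.30, 10.11, 9.74 and 10.40 at 15 weeks. All arrays of 20 weeks were above those of 15 weeks in the same housing, and the share of all genes for which this held was not counted. Rbl1 was 1.53-fold higher in isolated mice (log2 0.61, SE 0.10, limma adjusted p = 0.000597) and 1.46-fold higher in grouped mice (0.55, SE 0.13, adjusted p = 0.0058). After scaling it passed in isolated mice (0.27 to 0.39) but not in grouped mice (0.29 to 0.31, adjusted p = 0.0653 to 0.0821). The grouped difference also missed the threshold with the Gapdh term (0.56, adjusted p = 0.0575).

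Rb1, the family's tumour suppressor, read 11.24, 11.27, 10.91 and 11.31 in isolated mice at 20 weeks, against 10.86, 10.89, 10.87 and 10.92 in isolated mice at 15 weeks. In grouped mice Rb1 read 11.28, 11.37, 11.16 and 11.20 at 20 weeks, against 10.96, 10.98, 10.88 and 11.11 at 15 weeks. The isolated groups overlapped only through replicate 3 at 20 weeks, and the grouped ones did not overlap. The share of all genes without overlap was not counted. The differences passed as deposited, at 0.30 (SE 0.09, limma adjusted p = 0.0118) in isolated and 0.27 (SE 0.08, adjusted p = 0.0116) in grouped mice. They lay close to the median of all genes, and after scaling they were -0.04 to 0.08 in isolated and 0.03 to 0.05 in grouped mice, with none passing.

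Rbl2, the member most abundant in resting cells, read 9.01, 9.09, 9.17 and 9.23 in isolated mice at 20 weeks, against 8.74, 8.96, 8.92 and 9.06 in isolated mice at 15 weeks. In grouped mice Rbl2 read 9.03, 9.08, 9.12 and 9.16 at 20 weeks, against 9.44, 9.01, 9.06 and 9.17 at 15 weeks. The ages overlapped in both housings. The isolated difference of 0.20 (SE 0.08, limma adjusted p = 0.0428) passed as deposited. It turned to -0.07 to -0.02 after scaling, and missed the threshold without replicate 1, 2 or 3 at 15 weeks or replicate 2, 3 or 4 at 20 weeks (adjusted p = 0.0661 to 0.116), or with the Gapdh or the actin term (0.19, adjusted p = 0.0588, and 0.15, adjusted p = 0.09). The grouped difference of -0.07 (SE 0.09, adjusted p = 0.506) did not pass as deposited and passed as lower after scaling (-0.32 to -0.30, adjusted p = 0.021 to 0.0259).

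As deposited, 7 of the 8 genes passed as higher at 20 weeks in isolated mice, where 66.6% of all genes passed, 57.3% as higher and 9.33% as lower. In grouped mice 6 of the 8 passed as higher, where 62.5% of all genes passed, 56% as higher and 6.41% as lower. After quantile normalization 4490 genes were higher and 4686 lower in isolated mice, against 10422 and 1697 as deposited, and 3505 were higher and 3517 lower in grouped mice, against 10196 and 1166. Under each scaling 4 of the 8 genes (Cdkn2a, Mdm2, Cdkn1a and Rbl1) were higher and 1 (Ccng1) was lower in isolated mice, and 3 (Cdkn2a, Mdm2 and Cdkn1a) were higher and 1 (Rbl2) was lower in grouped mice.

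**Figure D2:**
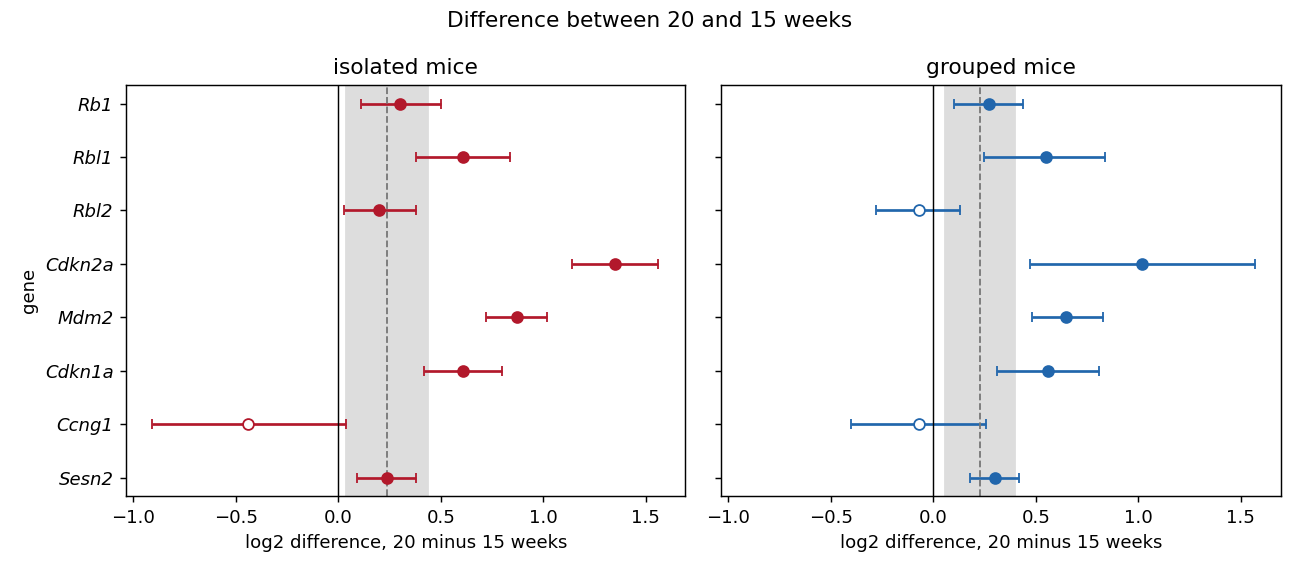
Log2 difference between 20 and 15 weeks for each gene, with 95% confidence intervals, in isolated (left) and grouped mice (right). Filled points passed an adjusted p of 0.05, the dashed line is the median of all genes (0.24 and 0.23) and the grey band spans their quartiles. Cdkn2a, Mdm2, Cdkn1a and Rbl1 lie right of the band, Rb1 and Sesn2 within it.

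The other probe sets of a gene did not always follow the brightest. Of the 19 probe sets, 14 were higher and 1 lower at 20 weeks in isolated mice, where 59.4% of all probe sets were higher and 8.17% lower, and 12 were higher and 0 lower in grouped mice, where 58% were higher and 5.7% lower. Of the Rbl1 probe sets, 1425166_at differed by 1.16 in isolated and 0.98 in grouped mice and 1432604_at by 0.62 and 0.61. A dim one, 1454293_at, with a mean of 5.58, went the other way, at -0.24 and -0.12, and in grouped mice it did not pass. The second Mdm2 probe set, 1427718_a_at, differed by 0.39 in isolated and 0.22 in grouped mice, below the 0.87 and 0.65 of the tested one. A dim Mdm2 probe set, 1457929_at, with a mean of 7.1, differed by 0.17 in isolated and 0.28 in grouped mice. The median over all probe sets was 0.24 in each housing. It exceeded the grouped difference of 1427718_a_at and the isolated difference of 1457929_at. The second Cdkn1a probe set, 1421679_a_at, differed by 0.34 in isolated and 0.18 in grouped mice. The grouped difference did not pass (limma adjusted p over all probe sets = 0.324) and also lay below the median over all probe sets. The second Sesn2 probe set, 1425139_at, differed by 0.57 and 0.71, more than the tested one, at a similar mean level of 7.9. All 3 Ccng1 probe sets had negative differences in both housings, and none passed. The second Rbl2 probe set, 1418146_a_at, differed by 0.05 in isolated and -0.08 in grouped mice. Transcript forms that each probe set reads were not analysed here.

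**Figure D3:**
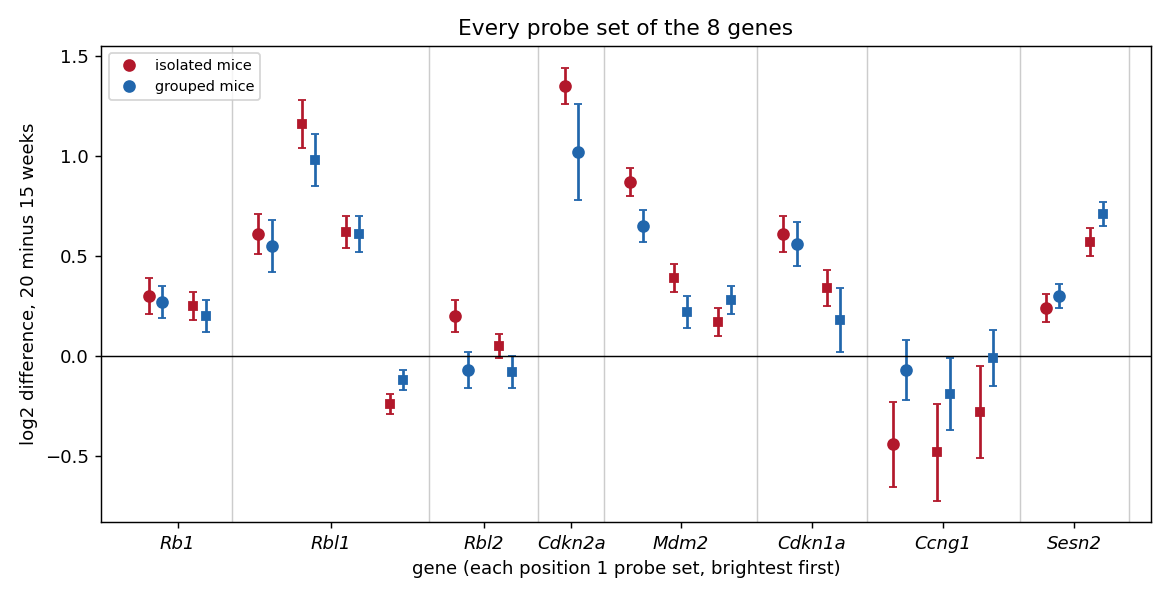
Log2 difference between 20 and 15 weeks of every probe set of the 8 genes, with bars of 1 SE, in isolated (red) and grouped mice (blue). Large circles are the tested probe sets and small squares the others. The Rbl1 probe sets spread from -0.24 to 1.16, and the Ccng1 probe sets all lie below 0.

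Housing was the comparison the study was designed around. None of the 8 genes differed between isolated and grouped mice at 20 weeks by limma, where 0.011% of all genes passed, and 0 of the 8 had an unadjusted p under 0.05, against 8.49% of all genes. The largest difference was that of Ccng1, at 12.05 ± 0.47 in isolated and 12.49 ± 0.34 in grouped mice (log2, SD, n = 4 arrays each; difference -0.44, limma adjusted p = 0.63). Its 95% interval ran from -0.98 to 0.10. Cdkn2a overlapped, with 10.10 to 10.44 in isolated mice, against 9.72 to 10.18 in grouped mice, and differed by 0.25 (SE 0.12, limma adjusted p = 0.592), with an interval of -0.01 to 0.52. The intervals of the other 6 genes lay between -0.29 and 0.41, and every gene's isolated and grouped arrays overlapped.

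At 15 weeks again 0 of the 8 genes passed, where 0.044% of all genes did, and 1 had an unadjusted p under 0.05, as did 9.7% of all genes. That gene was Rbl2, at 8.92 ± 0.13 in isolated and 9.17 ± 0.19 in grouped mice (log2, SD, n = 4 arrays each; difference -0.25, SE 0.10, limma adjusted p = 0.479). Grouped replicate 1 at 9.44 was the highest of all 16 arrays for Rbl2, and without it the difference was -0.16 (adjusted p = 0.489). The same array had the highest mean of the B cell markers, 9.42 against at most 8.5 on any other array, and of the T cell markers, 8.94 against at most 8.7. The part of lymphocytes in the Rbl2 difference was not tested. Cdkn2a had the widest interval, -0.59 to 0.43, as its SD was 0.15 in isolated and 0.57 in grouped mice. Mdm2 was at 9.80 ± 0.02 in isolated and 9.89 ± 0.15 in grouped mice (difference -0.09, limma adjusted p = 0.679).

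**Figure D4:**
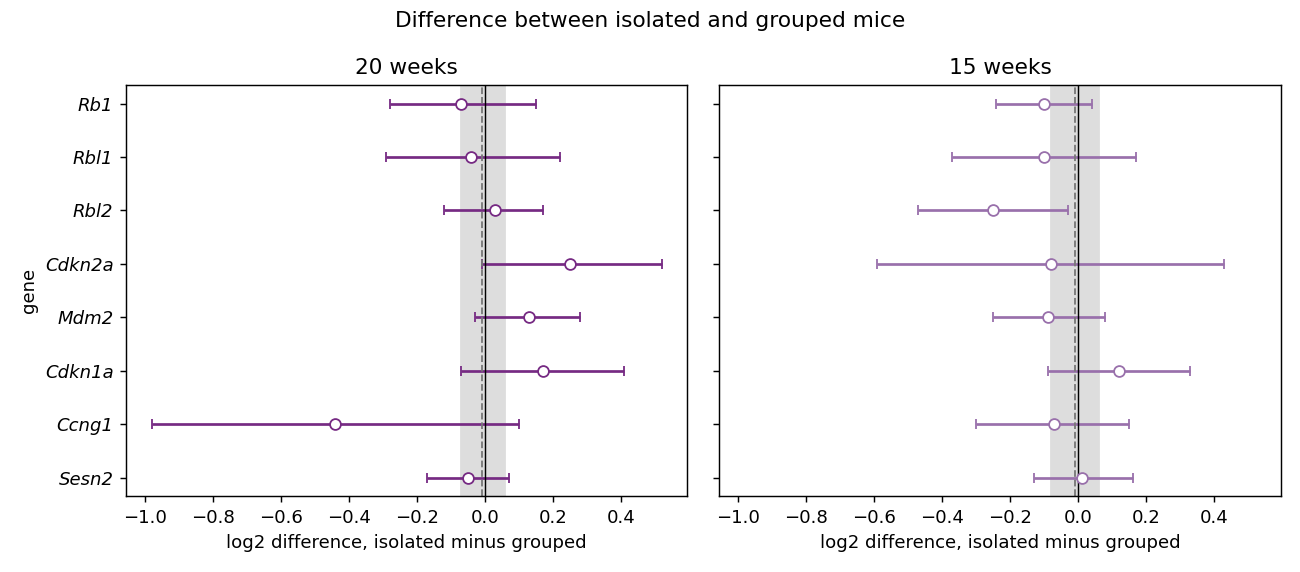
Log2 difference between isolated and grouped mice for each gene, with 95% confidence intervals, at 20 weeks (left) and 15 weeks (right). Open points did not pass an adjusted p of 0.05, and the grey band spans the quartiles of all genes. No gene passed, and the Ccng1 interval at 20 weeks, from -0.98 to 0.10, was among the widest.

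Over both ages 0 of the 8 genes passed, where 0.0055% of all genes did, and 0 had an unadjusted p under 0.05, against 6.83% of all genes. The housing difference at 20 weeks was also set against that at 15 weeks in 1 fit over all 16 arrays, in which an effect of run shared by both housings cancels. Again 0 of the 8 genes passed, where 0.011% of all genes did. Rbl2 (0.28, SE 0.12, limma adjusted p = 0.369) and Mdm2 (0.22, SE 0.10, adjusted p = 0.381) were the 2 with an unadjusted p under 0.05, as 12.7% of all genes had. Mdm2 was higher in isolated mice at 20 weeks by 0.13 and lower at 15 weeks by a difference of -0.09, and neither passed.

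The spread between arrays of the same age was shared by some of the genes and not by others. With age means but not housing means removed, Pearson r between pairs of the 8 genes ran from -0.37 (Rbl1 with Ccng1) to 0.77 (Rb1 with Rbl1). It was -0.01 for Rb1 with Cdkn1a and 0.15 for Rbl1 with Cdkn1a. Grouped replicate 3 at 15 weeks had the lowest level of its group for Cdkn2a, Mdm2, Cdkn1a, Rbl1 and Rb1. For Cdkn1a replicate 2 was nearly as low (10.49 against 10.48). Replicate 4 had the highest level for Cdkn2a, Mdm2, Rbl1 and Rb1. The mean of the E2F target genes described below was also lowest in replicate 3 (10.3) and highest in replicate 4 (11.08) of that group. In isolated mice at 20 weeks replicate 3 had the lowest Rb1, Rbl1 and Cdkn2a levels and the lowest E2F target mean (11.32). Mdm2 and Cdkn1a were instead lowest in replicate 1 of that group (10.51 and 11.15). That array had the highest Rbl1 level (10.91) and E2F target mean (11.8) of the group. Cell markers differed between these arrays too. Grouped replicate 3 at 15 weeks had the highest adipocyte marker mean (12.72) and the lowest luminal mean (11.19) of its group, and replicate 4 the highest luminal (11.53) and basal epithelial (10.09) means. Isolated replicate 3 at 20 weeks had the lowest luminal mean of its group (11.44). The part of cell make-up in this shared spread was not tested. With the mean of each age removed, the genes most alike over the 16 arrays were Prkci, Eif2a and Ehf for Rb1 (Pearson r = 0.90, 0.90 and 0.89) and Dusp6, Tes and Bok for Cdkn2a (0.91, 0.90 and 0.90). For Mdm2 they were Clec4d, Crabp2 and Cyp26b1 (0.90, 0.90 and 0.88), and for Cdkn1a Spns1, Klk8 and Slc16a3 (0.79, 0.76 and 0.76). These r values are the highest among 18193 genes on arrays that share their glands and groups, and describe likeness only.

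Other genes of the 2 pathways were read from 6 lists. Their counts as deposited stand beside the 57.3% of all genes that passed as higher in isolated and the 56% in grouped mice. Counts after scaling stand beside 3982 to 4817 of 18193 genes that were higher and 4323 to 5173 that were lower in isolated mice. In grouped mice 3242 to 3505 of all genes were higher and 3517 to 3775 lower after scaling. All 19 measured E2F target genes, which make the replication and mitosis machinery, were higher at 20 weeks in both housings, by a median of 0.85 in isolated and 0.83 in grouped mice. In isolated mice the differences ran from 0.51 for Mki67 and Rrm1 to 1.17 for the replication licensing factor Cdc6, and in grouped mice from 0.38 for Rrm1 to 1.02 for the topoisomerase Top2a. After scaling 17 to 18 of the 19 passed as higher in isolated and 17 in grouped mice, and medians were 0.52 to 0.63 and 0.60 to 0.68. Of 18 promoter windows of the E2F target list, 12 held the E2F motif.

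Of 10 E2F factors and DP partners, 7 were higher in isolated mice, where 57.3% of all genes were, and 8 in grouped mice, where 56% were, with medians of 0.42 and 0.47. E2f1, an activator made as cells enter S phase, differed by 0.82 in isolated and 0.69 in grouped mice, and the atypical repressor E2f8 by 0.74 and 0.88. After scaling 4 or 5 of the 10 were higher in each housing and 1 was lower in isolated mice, with E2f1 and E2f8 among the higher ones under quantile normalization (adjusted p = 0.00119 and 0.0021 in isolated mice and 0.0102 and 0.000639 in grouped mice).

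Of 13 Rb kinase subunits and inhibitors, 9 were higher and 2 lower in isolated mice, and 8 were higher and 2 lower in grouped mice. The E cyclins Ccne2 (1.58 in isolated and 1.04 in grouped mice) and Ccne1 (0.96 and 0.90) and their kinase Cdk2 (0.87 and 0.81) were higher. So was Cdkn2b (1.27 and 0.94), the kinase inhibitor gene next to Cdkn2a. Lower in both housings were Ccnd2, a D cyclin (-0.90 and -0.53), and the inhibitor Cdkn1c (-0.85 and -0.54). These members work in opposite ways on Rb, as cyclins and kinases phosphorylate it and the inhibitors prevent that. After scaling 7 were higher in each housing, and 2 or 3 were lower.

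Of 13 p53 regulators and relatives, 11 were higher in each housing, with medians of 0.51 in isolated and 0.44 in grouped mice. Among these were the damage kinase Atm (0.50 and 0.57), the ubiquitin ligase Cop1 (0.54 and 0.44) and the deubiquitinase Usp7 (0.60 and 0.64). The Mdm2 relative Mdm4, at 0.09 and 0.03, and Trp73, at -0.03 and 0.05, did not pass. After scaling 5 to 8 were higher in isolated and 7 in grouped mice, and 1 or 2 were lower.

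Of the 24 other p53 targets, as deposited 16 were higher and 2 lower in isolated mice, beside 57.3% and 9.33% of all genes. In grouped mice 12 were higher and 1 lower, beside 56% and 6.41% of all genes. The medians of 0.31 and 0.21 lay close to the 0.24 and 0.23 of all genes. After scaling 4 to 8 were higher and 5 to 6 lower in isolated mice, and 2 were higher and 1 or 2 lower in grouped mice. Of all genes, 50.2% to 50.4% then passed in either direction in isolated and 37.3% to 38.9% in grouped mice. The counts of all genes by direction after scaling are given where the lists were introduced. Perp, a membrane protein of apoptosis and desmosomes, was higher by 0.86 in isolated and 0.81 in grouped mice. Apaf1, the scaffold of the apoptosome, was higher by 0.64 and 0.35. Phlda3, an inhibitor of Akt, was lower by a difference of -0.89 in isolated and -0.48 in grouped mice, and the glycolysis regulator Tigar was lower in isolated mice (-0.47), while its difference of -0.10 in grouped mice did not pass. Of 8 other large T partners, 5 were higher in each housing, beside 57.3% and 56% of all genes, among them the ubiquitin ligase subunit Fbxw7 (0.52 and 0.59) and the repair protein Nbn (0.61 and 0.54). After scaling 3 of them were higher and 2 lower in isolated mice, and 4 or 5 were higher and 1 lower in grouped mice.

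**Figure D5:**
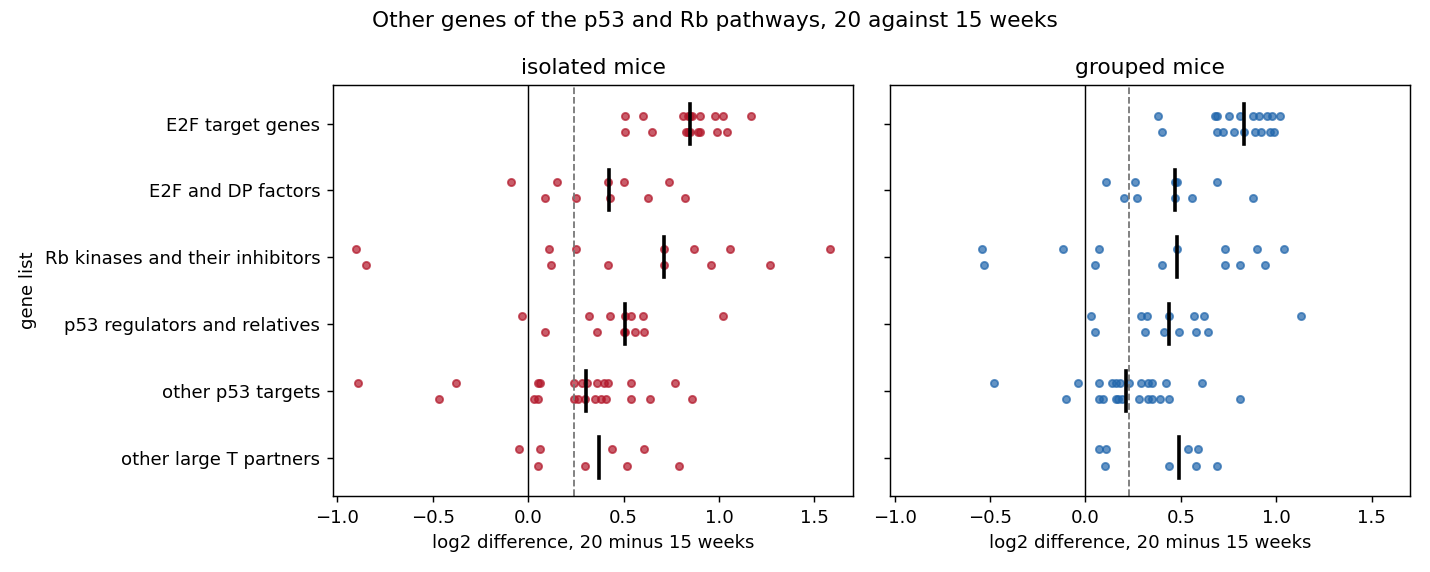
Log2 difference between 20 and 15 weeks of the measured genes of 6 lists, 1 point per gene, in isolated (left) and grouped mice (right). Black ticks are list medians and the dashed line is the median of all genes (0.24 and 0.23). The E2F target genes all lie right of the line, and the other p53 targets are centred near it.

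In the housing comparisons 0 genes of these 6 lists passed in limma, at either age, over both or in the interaction. An unadjusted p under 0.05 was found for 9.7% of all genes at 15 weeks and 8.49% at 20 weeks. Among the lists there were 5 of the 24 other p53 targets at 15 weeks and 1 at 20 weeks, and 0 of the 19 E2F target genes at either age. There was 1 p53 regulator at each age, and there were 1 Rb kinase or inhibitor gene at 15 weeks and 3 at 20 weeks. The lists' median housing differences lay between -0.06 and 0.05, where the median of all genes was -0.01. The largest among the genes with the smallest p were Dusp4 at 15 weeks (0.49, adjusted p = 0.344) and Ccnd2 at 20 weeks (-0.35, adjusted p = 0.567).

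Markers of other cells also moved with age. Their counts, as deposited and after scaling, stand beside those of all genes given for the 6 lists. Of 7 adipocyte markers, 7 were lower at 20 weeks in isolated and 6 in grouped mice, beside 9.33% and 6.41% of all genes. After scaling all 7 were lower in each housing, where 4323 to 5173 of 18193 genes were lower in isolated and 3517 to 3775 in grouped mice. Their mean level ran from 10.39 to 11.63 in isolated mice at 20 weeks, against 12.13 to 12.36 in isolated mice at 15 weeks. In grouped mice it ran from 11.52 to 11.89 at 20 weeks, against 12 to 12.72 at 15 weeks. Of 11 luminal epithelial markers, 7 were higher and 2 lower in isolated mice and 8 were higher in grouped mice, beside 57.3% and 56% of all genes. After scaling 3 to 5 were higher and 3 lower in isolated mice, and 4 to 6 were higher and 1 lower in grouped mice. Their mean ran from 11.44 to 11.80 in isolated mice at 20 weeks, against 11.36 to 11.45 at 15 weeks, and from 11.71 to 11.90 in grouped mice at 20 weeks, against 11.19 to 11.53 at 15 weeks. Of 10 macrophage markers, 7 were higher in isolated mice and 0 in grouped mice as deposited, beside 57.3% and 56% of all genes. After scaling 2 to 5 were higher in isolated mice and 3 were lower in grouped mice. The part of cell make-up in the age differences of Cdkn2a, Mdm2, Cdkn1a, Rbl1 and the E2F targets was not tested.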

How the data were processed

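RNA of 16 thoracic mammary glands was read on Affymetrix arrays. The deposited values are log2 expression levels; the authors used RMA and affy (versions unstated), per the submitters' processing notes. RMA corrects background, normalizes arrays and gives 1 value per probe set. Precision is limited by the number of arrays, which have no read depth. Of 45101 probe sets, 64 were controls. Of the rest, 34945 had 1 gene symbol in the platform's gene table, 932 had several and 9211 of all probe sets were not listed. Matching 34754 of them to RefSeq IDs changed 0 symbols.

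The brightest probe set of each of 18193 genes went into limma 3.58.1 under R 4.3.3 (lmFit, then eBayes with trend). P-values were adjusted by Benjamini-Hochberg across these genes, and 0.05 was the threshold. Comparisons of 2 groups used their own 8 arrays, and the others all 16. Every probe set was fitted apart. The fit was tested on simulated data. No 2 arrays of a group were duplicates (the SD of their difference was 0.115 or more).

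The members and lists were chosen with earlier results of these data known. All members are described in each comparison. From each list, up to 4 genes with the smallest p are named, and those that passed may be, and for Rb1, Cdkn2a, Cdkn1a and Mdm2 the 3 genes most correlated. Alternatives were 3 scalings, a filter at the 40th percentile of gene levels, other probe set choices, other priors, control probe set covariates, a replicate block, all 16 arrays and leaving out each array.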

Additional observations from a re-analysis of the deposited data

Results flagged for a closer look

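Of 76 groups of 4 arrays, taken over all probe sets of the 8 genes, 3 held an array set apart from the other 3, where chance sets apart about 1 in 20. All were in isolated mice at 20 weeks. For Rb1 replicate 3 read 10.91, and the others read 11.24 to 11.31. For Sesn2 replicate 4 read 8.31, and the others read 8.19 to 8.20. For the dim Mdm2 probe set 1457929_at replicate 3 read 7.3, and the others read 7.2 to 7.21.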

How the results depend on the processing

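Counted in either direction, the number of the 8 genes that passed stayed within 1.5 times under all 134 settings: 0 in each housing comparison, 5 to 8 by age in isolated and 4 to 6 in grouped mice. By direction, each of the 3 scalings left 4 higher and 1 lower in isolated mice (7 and 0 as deposited) and 3 higher and 1 lower in grouped mice (6 and 0). Cdkn2a and Mdm2 passed by age in all 20 alternatives in both housings. For Mdm2 each of these used the same probe set, and its other probe sets were not put through the scalings. Correlations of deviations between same-numbered arrays ran from -0.2 to 0.49. Differently numbered arrays were not compared in this way, so these values do not decide whether the numbers pair arrays. With a replicate block the counts by age were 8 in isolated (Ccng1 added, limma adjusted p = 0.0324) and 6 in grouped mice. Over all genes 17 against 8 then passed for housing at 15 weeks and 61 against 2 for the interaction. The count over all genes for age in grouped mice was 7022, 7084 and 6777 under quantile normalization, cyclic loess and median centring and 7559 with the Gapdh covariate, against 11362. Over all genes, leaving out 1 array gave 0 to 31 for housing at 15 weeks (31 without grouped replicate 3), 0 to 136 at 20 weeks, 1 to 50 over both ages and 0 to 139 for the interaction, the last 3 highest without isolated replicate 4 at 20 weeks.

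These differences changed sign under the settings given; the cause was not tested. None passed as deposited except Rbl2 and Rb1 for age in isolated mice, and none passed with its sign changed. At 15 weeks (isolated minus grouped) Ccng1 was 0.01 under quantile normalization, 0.03 under cyclic loess and 0.05 with the Gapdh covariate, under which Cdkn1a was -0.02 and Sesn2 -0.11. With the probe set of largest variance Mdm2 was 0.15 at 15 weeks, Rbl1 0.12 and Rbl2 0.00 at 20 weeks, and Rbl1 0.03 over both ages. For age in isolated mice Rbl2 was -0.04, -0.07 and -0.02 under quantile normalization, cyclic loess and median centring, and Rb1 -0.04 under cyclic loess. Ccng1 was 0.18 for age in grouped mice with the Gapdh covariate. In the interaction Rb1 was -0.04 and Cdkn1a -0.02 under quantile normalization, and Rb1 -0.06, Rbl1 -0.01 and Cdkn1a -0.05 under cyclic loess. Leaving out each array gave, at 15 weeks, -0.35 to 0.08 for Cdkn2a, -0.15 to 0.01 for Ccng1 and -0.02 to 0.06 for Sesn2. At 20 weeks it gave -0.11 to 0.02 for Rb1, -0.12 to 0.06 for Rbl1 and -0.01 to 0.07 for Rbl2. For age in grouped mice it gave -0.12 to 0.02 for Rbl2 and -0.2 to 0.07 for Ccng1. Over both ages it gave -0.05 to 0.17 for Cdkn2a, -0.01 to 0.05 for Mdm2 and -0.04 to 0.01 for Sesn2. In the interaction it gave -0.01 to 0.12 for Rb1, -0.02 to 0.2 for Rbl1 and -0.01 to 0.13 for Cdkn1a. Probe sets near the arrays' lower quartiles, such as the dim ones of Rb1, Rbl1 and Mdm2, are limited by signal over background.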
